A study of Mus musculus with 6 samples.

Results

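Depp1, the 3 measured FOXO transcription factor genes Foxo1, Foxo3 and Foxo4, and the FOXO-regulated metabolic genes Pdk4 and Txnip were followed in thrombosed mouse veins. They are 6 of the 16533 genes in the deposited count tables and were found by gene symbol. The tissue was the inferior vena cava with its thrombus, taken 24 h after the start of a deep vein thrombosis model in which the vein is ligated. The mKO group was Stingf/f Lyzm-Cre+/-: both copies of Sting1 are flanked by loxP sites, and 1 copy of Cre in the Lyz2 (Lyzm) locus deletes it in neutrophils, monocytes and macrophages. The control group was Stingf/f, with the same floxed gene and no Cre. The sample titles name the groups more briefly, as "WT mice" for control and "Sting mice" for mKO. Both groups carried the floxed allele and had the same surgery, and the sources used here do not state the age of the mice. Each group has 3 libraries, and each library is a pool of 3 thrombi, so the spread between libraries is a spread between pools. The members were selected on their counts in these same 6 libraries, with the fold change of mKO over control in view. For them, the difference between the groups is therefore a description, and no test of it is given.

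FOXO proteins are forkhead transcription factors that insulin and growth factor signalling switch off: the kinase AKT phosphorylates them, 14-3-3 proteins bind them, and they leave the nucleus. When signalling is low, as in fasting, they return and activate genes for fuel switching, cell cycle arrest, stress resistance and cell death. In endothelium, FOXO1 is known to restrain growth and metabolic activity. Because FOXO activity is set largely by phosphorylation and location, the mRNA level of a FOXO gene does not measure it.

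Depp1 and Pdk4 were both far lower in mKO veins, with no overlap between the groups, whereas the 3 FOXO genes overlapped between the groups. Txnip was higher on average in mKO veins, with a small overlap. The members thus did not move together: Depp1 was at 0.328 and Pdk4 at 0.338 times the control mean, and Txnip at 1.54 times. Groups without overlap, as for these 2 lower members, were found for 9.39% of all genes tested in that direction. In whole tissue, fewer cells of a type and less RNA per cell cannot be told apart.

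Library totals ranged from 158579864 to 180068483 counts, and every member had at least 720 counts in every library. Levels are given in CPM, counts scaled to a common TMM-adjusted library size. Endothelial, smooth muscle, neutrophil, monocyte and erythroid markers were all above 0 in all 6 libraries. Sting1 had 24.3 ± 3.87 CPM in mKO and 27.9 ± 3.21 CPM in control (SD, n = 3 each), a count over the whole gene and all cells that cannot show a deletion limited to myeloid cells. Lyz2, the locus that carries Cre in mKO mice only, had 981.7 ± 294 CPM in mKO and 1691 ± 235 CPM in control (SD, n = 3 each). mKO library 3 had the most skeletal muscle marker transcript, with a sum of 242.7 CPM, and the other libraries had 4.92 to 67.8 CPM. Nothing in the labels gives a processing batch.

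Foxo1, the FOXO factor best known from endothelium and insulin-responsive tissues (ENSMUSG00000044167, chromosome 3), had 14.7, 14.6 and 18.9 CPM in mKO libraries 1 to 3, against 16.7, 20.1 and 16.0 CPM in control libraries 1 to 3. The groups overlapped, with mKO library 3 above control libraries 1 and 3, and the fitted log2 fold change of mKO over control was -0.13 (SE 0.14). Foxo3, a broadly expressed factor that also serves stem cells and red cell precursors (ENSMUSG00000048756, chromosome 10), had 58.7, 96.4 and 71.4 CPM in mKO and 79.0, 48.9 and 61.7 CPM in control. Its highest library was mKO 2 and its lowest control 2, and the log2 fold change was 0.26 (SE 0.23). Foxo4, the X-linked member of the family (ENSMUSG00000042903), had 14.5, 17.9 and 14.9 CPM in mKO and 15.7, 13.0 and 14.5 CPM in control. mKO library 2 was again the highest and control library 2 the lowest, with a log2 fold change of 0.13 (SE 0.13). For all 3 factors the sign held on leaving out any single library, but each log2 fold change was near the size of its SE. The sign turned with a covariate. With the endothelial marker score as a covariate, the log2 fold changes were 0.26 for Foxo1, -0.21 for Foxo3 and -0.13 for Foxo4. That score itself separated the groups, at -0.19, -0.36 and 0.006 in mKO libraries 1 to 3 and 0.15, 0.34 and 0.05 in control libraries 1 to 3. With 6 libraries, score and genotype largely cannot be told apart in such a fit. Foxo6, the remaining family member, is not analysed here.

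Levels of different genes can be compared only per length, here as CPM per kb of annotated exon. On that scale Foxo3 stood first among the FOXO genes in both groups, at 9.97 ± 2.53 in mKO and 8.35 ± 2.00 in control (SD, n = 3 each). Foxo4 followed, at 4.53 ± 0.527 in mKO and 4.13 ± 0.399 in control, and Foxo1 stood last, at 1.85 ± 0.284 in mKO and 2.03 ± 0.256 in control. No library broke this order within its group, since the ranges of neighbouring genes did not overlap.

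**Figure D1:**
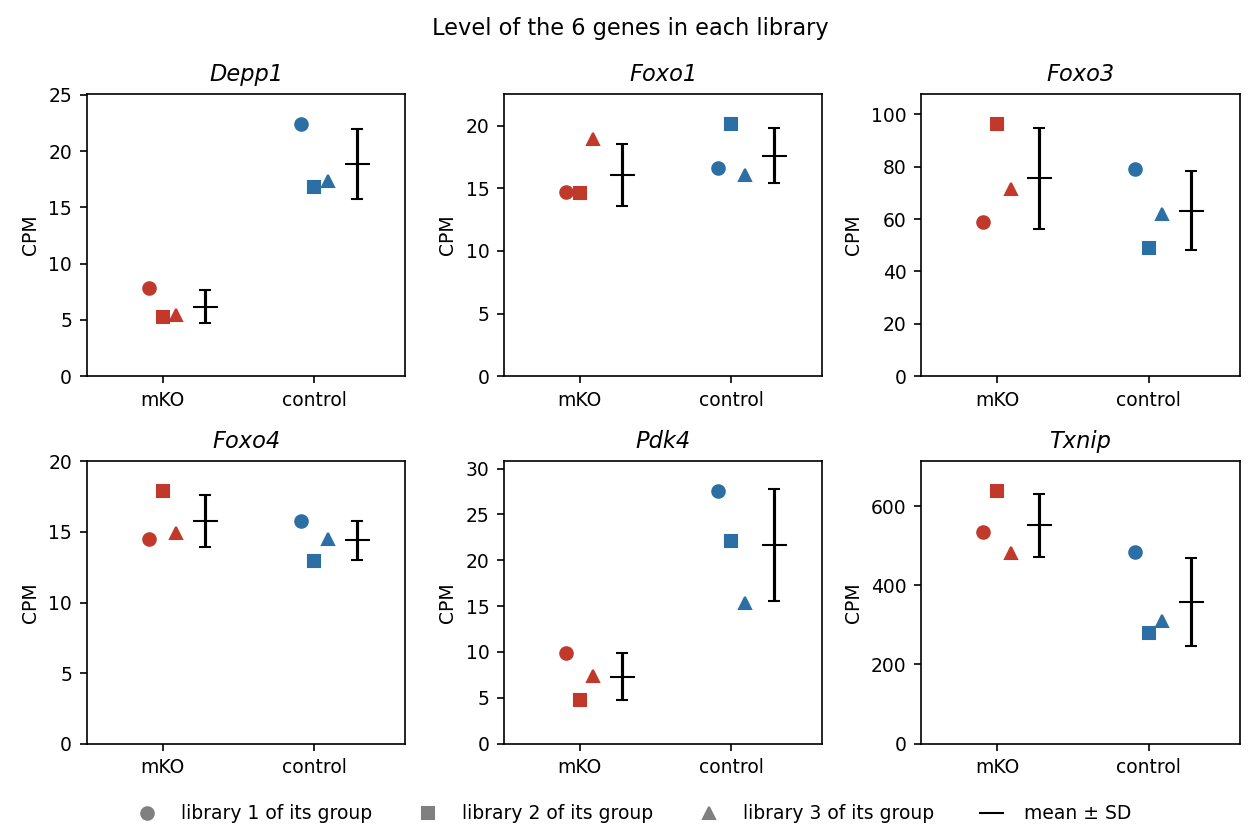
Level in CPM (vertical axis, from 0) of each of the 6 genes in the mKO and control libraries; the symbol gives the library number and the black bar the mean with its SD (n = 3). The 3 mKO libraries lie below all control libraries for Depp1 and Pdk4, and the groups overlap for Foxo1, Foxo3, Foxo4 and Txnip.

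Depp1 encodes a small protein without a known enzymatic activity that is induced by FOXO factors, by progesterone and by fasting. In human cells it has been found at peroxisomes and mitochondria and linked to lower catalase activity. Depp1 (ENSMUSG00000048489, chromosome 6) had 1355, 807 and 930 counts in mKO libraries 1 to 3, against 4119, 3060 and 2683 counts in control libraries 1 to 3. These correspond to 7.83, 5.28 and 5.44 CPM in mKO and to 22.4, 16.8 and 17.3 CPM in control. The highest mKO library was below the lowest control library, and library 1 was the highest in both groups. The means were 6.19 ± 1.43 CPM in mKO and 18.8 ± 3.11 CPM in control (SD, n = 3 each), and the log2 fold change was -1.61 (SE 0.19). Among the 13894 genes with a mean of at least 1 CPM, 17 had a more negative log2 fold change. Leaving out mKO library 1 gave -1.81 and leaving out control library 1 gave -1.46, the extremes over single libraries.

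Pdk4, pyruvate dehydrogenase kinase 4, phosphorylates and shuts down the pyruvate dehydrogenase complex, which turns cells from glucose to fatty acids as fuel. It is a direct target of FOXO1 and of the PPAR nuclear receptors and is induced by fasting in muscle, fat and liver. Pdk4 (ENSMUSG00000019577, chromosome 6) had 9.91, 4.71 and 7.33 CPM in mKO and 27.5, 22.1 and 15.3 CPM in control. The control libraries spread widely, from 15.3 to 27.5 CPM, and all of them lay above the highest mKO library. The log2 fold change was -1.56 (SE 0.32), and 20 of the 13894 genes had a more negative one. Leaving out mKO library 1 gave -1.84 and leaving out mKO library 2 gave -1.33, again the extremes.

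The ratio of Pdk4 to Depp1 overlapped between the groups. Its log2 value was 0.34, -0.16 and 0.43 in mKO libraries 1 to 3, against 0.30, 0.40 and -0.18 in control libraries 1 to 3. The ratio of Depp1 to Foxo1, by contrast, separated the groups. It was -0.91, -1.47 and -1.80 in mKO and 0.43, -0.26 and 0.11 in control, on the log2 scale. Both patterns follow from the fold changes given for these members, which were in view at selection, and are no separate result.

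Txnip, thioredoxin-interacting protein, is an alpha-arrestin that binds thioredoxin and promotes the removal of glucose transporters from the cell surface. Its gene is induced by glucose through the transcription factor pair MLXIP or MLXIPL with MLX, and FOXO factors also act on it. Txnip (ENSMUSG00000038393, chromosome 3) had 535, 637 and 480 CPM in mKO and 484, 280 and 309 CPM in control. Control library 1 exceeded mKO library 3 slightly, so the groups overlapped, and control libraries 2 and 3 were well below the rest. The means were 551 ± 79.6 CPM in mKO and 358 ± 110 CPM in control (SD, n = 3 each), and the log2 fold change was 0.62 (SE 0.24). The value was 0.90 without control library 1 and 0.47 without control library 2.

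The promoters of Depp1, Pdk4 and Txnip are shown because these 3 FOXO-regulated genes had the larger differences, in opposite directions. They were read from a RefSeq table of the mouse build GRCm38.p6, which covers 250 bases before to 50 bases after each gene's start and held 5 of the 6 members, all but Foxo4. Capitals mark every match to the motifs searched, which were the forkhead core GTAAACA, its variant with the letters CAAAACA, the E-box CACGTG and the related E-box spelling CACGAG. Added after the sequences were seen were the forkhead spelling GTAAATA, a further spelling with the letters ATAAACA, and as the last one searched ATAAATA. Both strands were searched, and none of the matches printed here overlap.
Depp1 (chr6:116650434-116650733, plus strand): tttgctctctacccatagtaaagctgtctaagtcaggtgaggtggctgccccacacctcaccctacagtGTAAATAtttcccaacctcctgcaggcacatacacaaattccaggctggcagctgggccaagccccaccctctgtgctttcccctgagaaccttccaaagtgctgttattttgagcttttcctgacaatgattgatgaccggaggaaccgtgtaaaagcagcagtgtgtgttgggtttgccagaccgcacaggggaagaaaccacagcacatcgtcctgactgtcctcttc
Pdk4 (chr6:5496229-5496528, minus strand): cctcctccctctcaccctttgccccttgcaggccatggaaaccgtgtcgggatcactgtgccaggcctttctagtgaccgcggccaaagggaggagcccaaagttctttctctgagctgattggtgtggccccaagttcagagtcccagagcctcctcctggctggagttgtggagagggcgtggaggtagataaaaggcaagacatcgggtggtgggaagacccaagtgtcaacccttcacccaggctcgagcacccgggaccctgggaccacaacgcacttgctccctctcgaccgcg
Txnip (chr3:96557707-96558006, plus strand): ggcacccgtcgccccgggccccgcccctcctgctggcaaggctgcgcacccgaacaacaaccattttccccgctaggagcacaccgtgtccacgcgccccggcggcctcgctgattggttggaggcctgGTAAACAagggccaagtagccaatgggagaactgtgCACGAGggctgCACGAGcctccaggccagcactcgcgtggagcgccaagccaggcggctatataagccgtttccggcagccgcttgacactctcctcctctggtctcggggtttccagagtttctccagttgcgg

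The Depp1 window held GTAAATA at positions -181 to -175 from the start, on the gene's own strand. The Txnip window held GTAAACA at -121 to -115 and CACGAG at -85 to -80 and again at -74 to -69, all on the gene's strand. The Pdk4 window held none of these letters, which says nothing of sites farther away. Of the 32851 promoters in the table, 3.65% held GTAAACA, 3.04% GTAAATA, 4.6% ATAAACA, 5.6% ATAAATA, 6.28% CAAAACA, 7.15% CACGTG and 6.47% CACGAG. A window with 2 or more CACGAG matches, as Txnip has, made up 0.359% of the table. These matches describe the letters only. The Foxo1 window held no match, and the Foxo3 window held CACGAG at positions 2 to 7 on the opposite strand.

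Depp1 and Pdk4 were lower where endothelial and adipocyte markers were lower too. Summed smooth muscle markers were lower on average in mKO, but the groups overlapped, with 1707 CPM in mKO library 3 and 1421 CPM in control library 3. All 16 endothelial markers had a negative log2 fold change, from -0.03 for Flt1 to -1.22 for Cldn5, with a median of -0.28. Their summed level was 999.4 to 1183 CPM in mKO and 1269 to 1495 CPM in control, with none at 0 in any library. Of 12 adipocyte markers, 11 had a negative log2 fold change. The values were uneven, from -3.30 for Ucp1 and -1.66 for Cidea to 0.18 for Retn, with a median of -0.50. Ucp1 was low, at 0.29, 0.18 and 0.26 CPM in mKO and 2.61, 0.42 and 4.34 CPM in control. The 12 markers summed to 1023 to 1278 CPM in mKO and 1543 to 1655 CPM in control, with none at 0. Depp1 set against the endothelial marker score (its log2 level minus the mean log2 level of those markers, both centred on the 6 libraries) was -0.26, -0.65 and -0.97 in mKO libraries 1 to 3, and 0.92, 0.32 and 0.64 in control libraries 1 to 3. The groups still did not overlap, with a difference of -1.25, and against the adipocyte score the difference was -0.92, again without overlap. Pdk4 had differences of -1.22 against the endothelial score and -0.89 against the adipocyte score, also without overlap. The adipocyte score is a mean over 12 markers, and Ucp1 and Cidea had more negative log2 fold changes than Depp1 and Pdk4. Whether the Depp1 and Pdk4 differences exceed that of the fat cells marked by Ucp1 and Cidea was not tested. Against the smooth muscle score, which was highest in control library 2, the differences were -0.94 for Depp1 and -0.91 for Pdk4, and the groups overlapped. They overlapped against the skeletal muscle score too, with differences of -3.13 for Depp1 and -3.10 for Pdk4. With the endothelial score as a covariate of the fit, the log2 fold changes were -1.66 (SE 0.35) for Depp1 and -1.03 (SE 0.55) for Pdk4. Because the score separated the groups, score and genotype largely cannot be told apart in that fit.

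Txnip, Foxo3 and Foxo4 were each highest in mKO library 2 and lowest in control library 2. The summed erythroid, neutrophil and monocyte and macrophage markers had the same highest and the same lowest library. For the monocyte and macrophage markers this did not hold for the score, their mean log2 level. That score was highest in mKO library 1, at 0.39, and stood at -0.13 in mKO library 2 and -0.16 in control library 2. Erythroid markers summed to 238902 to 284893 CPM in mKO and 200917 to 259031 CPM in control, with 9 of 9 measured markers at a positive log2 fold change and none at 0 in any library. Set against the erythroid score, Txnip was -0.11, 0.11 and 0.08 in mKO and 0.32, -0.18 and -0.23 in control. The groups overlapped on that scale, with a difference of 0.06 on the log2 scale. Against the monocyte and macrophage score the difference was 0.55 with overlap, and against the neutrophil score it was 0.39 without overlap. Subtracting the endothelial score gave 1.02, without overlap, whereas the same score as a covariate of the fit gave a log2 fold change of 0.22 (SE 0.36). In that fit, score and genotype largely cannot be told apart, since the score separated the groups. Which share of the Txnip difference goes with blood cell content was not tested.

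**Figure D2:**
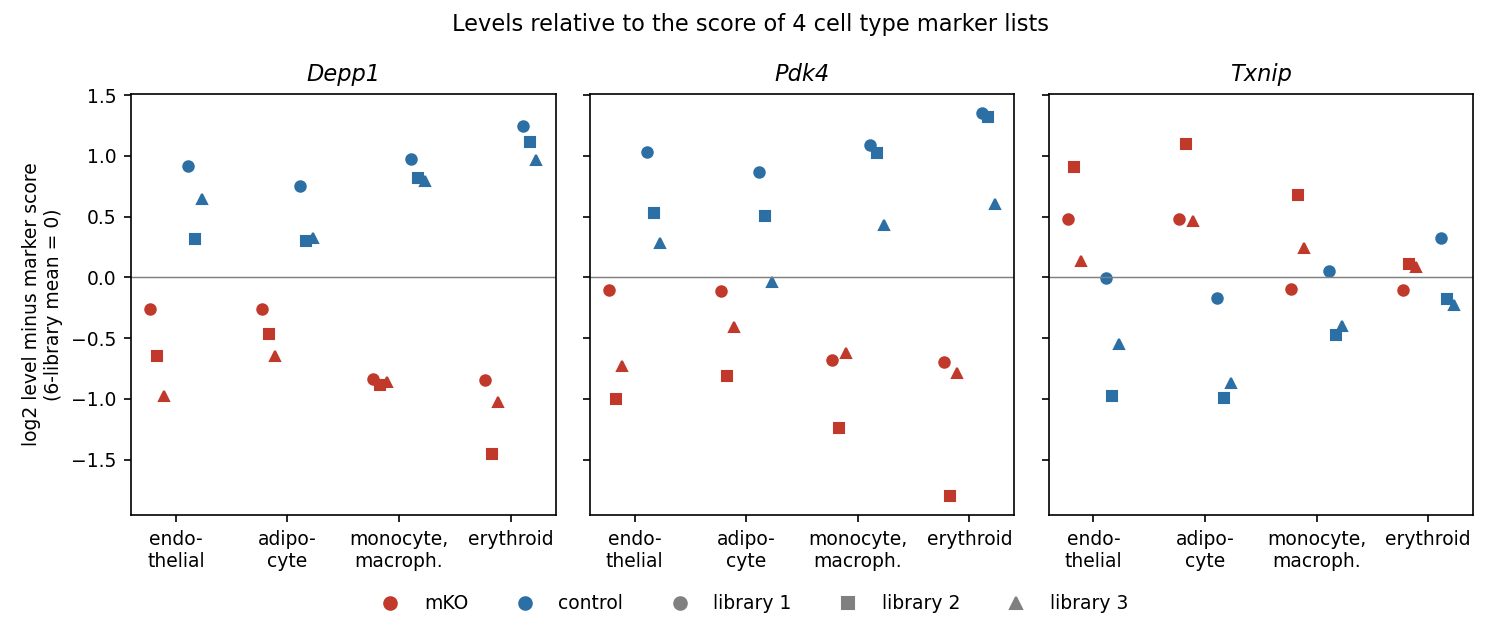
Log2 level of Depp1, Pdk4 and Txnip minus the mean log2 level of 4 marker lists in the same library (vertical axis, centred so that the mean of the 6 libraries is 0), for mKO and control libraries. Depp1 and Pdk4 separate the groups against the 4 lists drawn, but not against smooth muscle or skeletal muscle markers, which are not drawn, whereas Txnip does so against endothelial and adipocyte markers and overlaps against monocyte and macrophage and erythroid markers.

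The other genes of the pathway, from 8 lists, were tested with all 16523 genes that passed the expression filter. By edgeR's quasi-likelihood test 0 of these genes, 0%, had an adjusted p under 0.05. Before adjustment, 1960 genes (11.9%) had a p under 0.05, of which 926 (5.6%) were higher and 1034 (6.26%) lower in mKO. Limma voom called 0 after adjustment, and DESeq2 called 244 higher (1.51%) and 222 lower (1.37%) in mKO. Leaving out control library 1, control library 3 or mKO library 3 gave 7, 2 and 4 edgeR calls. Of the 134 listed genes that are not members, 130 were measured and tested, and edgeR called 0 of them, with 9 higher and 11 lower at an unadjusted p under 0.05. DESeq2 called 4 higher and 4 lower among the 130. Of the genes named below, those that only DESeq2 singled out were chosen after their values were seen. Groups did not overlap for 20 lower genes (15.4%), beside 9.39% of all genes, and for 15 higher ones (11.5%), beside 8.76%. The median log2 fold change of the 130 was 0.04, beside -0.03 for all genes tested.

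FOXO target genes divided in both directions. Of the 39 measured targets that are not members, 23 lay above and 16 below a log2 fold change of 0, and the median was 0.08. Of all 16523 genes, 7576 lay above and 8947 below 0. Bcl2l11, which encodes the death-promoting BCL2 relative BIM, had 85.0, 92.7 and 87.2 CPM in mKO and 55.5, 44.0 and 49.8 CPM in control. All mKO libraries lay well above all control libraries, and the log2 fold change was 0.83 (SE 0.12). The adjusted p was 0.134 in edgeR and 2.06e-06 in DESeq2. Bbc3, which encodes the death-promoting protein PUMA, had 8.37, 9.15 and 9.49 CPM in mKO and 6.15, 4.47 and 5.98 CPM in control, without overlap. Its log2 fold change was 0.70 (SE 0.15). The adjusted p was 0.225 in edgeR and 0.00999 in DESeq2. In the other direction stood Pck1, of gluconeogenesis and of glycerol synthesis in fat, with 12.8, 7.83 and 12.9 CPM in mKO and 60.5, 38.0 and 24.4 CPM in control. Its control libraries differed by more than 2-fold and all lay above the mKO libraries. The log2 fold change was -1.88 (SE 0.37). The adjusted p was 0.226 in edgeR and 1.11e-05 in DESeq2. Btg1, an antiproliferative gene and the listed target with the highest CPM, had 765 ± 142 CPM in mKO and 572 ± 82.6 CPM in control (SD, n = 3 each), at an edgeR adjusted p of 0.443. Its log2 fold change was 0.42, and 0.05 with the endothelial score as a covariate. The point farthest to the right in the plot of pathway lists is Trim63, a ubiquitin ligase of muscle, named after its values were seen. It had 70, 0 and 586 counts in mKO and 3, 10 and 145 counts in control, with overlapping groups, and was highest in the library with most skeletal muscle transcript.

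Upstream, none of the 24 genes of the PI3K-AKT list, which signal from insulin and growth factor receptors to FOXO, passed an adjusted p of 0.05 by edgeR or DESeq2. By edgeR no gene of the whole data set passed either. An unadjusted edgeR p under 0.05 was found for 0 of the 24, beside 11.9% of all genes. The median log2 fold change of the 24 was 0.13. The smallest p belonged to Pik3r2 and Pik3r1, regulatory subunits of the kinase, with log2 fold changes of 0.28 (SE 0.12) and 0.20 (SE 0.10). Sgk1, an AKT-related kinase that also phosphorylates FOXO3, had 67.6 ± 1.43 CPM in mKO and 77.5 ± 4.62 CPM in control (SD, n = 3 each), without overlap. Inpp5d, a lipid phosphatase of blood cells and the gene of the list with the highest CPM, had 274 ± 68.4 CPM in mKO and 233 ± 37.4 CPM in control (SD, n = 3 each).

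Among 22 genes that act on FOXO proteins directly, edgeR called 0, as it did of all genes, and DESeq2 called 0 too. An unadjusted edgeR p under 0.05 was found for 1 of the 22, beside 11.9% of all genes. That gene was Sirt1, a deacetylase of FOXO factors, with 14.2, 15.6 and 16.6 CPM in mKO and 13.3, 11.0 and 10.8 CPM in control. The groups did not overlap, and the log2 fold change was 0.41 (SE 0.12), at an edgeR adjusted p of 0.312. Mdm2, a ubiquitin ligase, stood at a log2 fold change of 0.30 (SE 0.14), and Stk3, a stress kinase, at -0.26 (SE 0.11), and at -0.0014 with the endothelial score as a covariate. Ywhah, a 14-3-3 gene, had 507.1 ± 182 CPM in mKO and 686 ± 127 CPM in control (SD, n = 3 each), with overlapping groups; its log2 fold change was -0.44, and -0.83 with that covariate.

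The remaining pyruvate dehydrogenase genes differed far less than Pdk4. EdgeR called 0 of the 12 others, as it did of all genes, and DESeq2 called 0 too. Groups did not overlap for 3 lower genes of the 12 (25%), beside 9.39% of all genes, and for 1 higher gene (8.33%), beside 8.76%. An unadjusted edgeR p under 0.05 was found for 1 of the 12, beside 11.9% of all genes. It was Pdha1, the catalytic subunit that PDK4 phosphorylates, with 49.6 ± 3.00 CPM in mKO and 59.5 ± 3.18 CPM in control (SD, n = 3 each). Its log2 fold change was -0.26 (SE 0.11). Mpc2, of the mitochondrial pyruvate carrier, had a log2 fold change of 0.26 (SE 0.12). Per exon length, the order of the 4 kinases differed between the groups. In mKO it ran from Pdk3, at 6.21 ± 0.600 CPM per kb, over Pdk1, at 5.0 ± 0.954, to Pdk4, at 2.08 ± 0.740, and Pdk2, at 2.04 ± 0.527 (SD, n = 3). In control, Pdk3 stood at 6.27 ± 0.556, Pdk4 at 6.16 ± 1.74, Pdk1 at 4.47 ± 0.777 and Pdk2 at 2.76 ± 0.424 CPM per kb (SD, n = 3). Pdk4 thus overlapped in range with Pdk2, the lowest kinase, in mKO and with Pdk3 and Pdk1, the higher kinases, in control. Pdk1 and Pdk3 also overlapped in mKO, so their order is not resolved there. The changed place of Pdk4 follows from its fold change, which was in view at selection, and is no separate result.

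Genes of the PPAR pathway and of fatty acid oxidation, a programme that also drives Pdk4, mostly had negative log2 fold changes. These were 13 of 16 measured genes, beside 8947 of all 16523, with a median of -0.23. Groups did not overlap for 9 lower genes (56.2%), beside 9.39% of all genes. EdgeR called 0 after adjustment, and 6 lower genes had an unadjusted p under 0.05, beside 6.26% of all genes. DESeq2 called 3, all lower, beside 1.37%. Angptl4, a secreted inhibitor of lipoprotein lipase, had 80.2, 58.7 and 62.7 CPM in mKO and 103, 94.5 and 109 CPM in control, with a log2 fold change of -0.60 (SE 0.15). Its adjusted p was 0.246 by edgeR and 0.0173 by DESeq2. Every mKO library lay below every control library. Fabp4, a fatty acid carrier of adipocytes and capillary endothelium, had -0.63 (SE 0.19), and -0.21 with the endothelial score as a covariate. The adjusted p was 0.305 in edgeR and 0.0226 in DESeq2. Cpt1b, the muscle form of the mitochondrial fatty acid gate, had -1.30 (SE 0.38). Plin2, a lipid droplet protein and the gene of the list with the highest CPM, had 806 ± 63.9 CPM in mKO and 744 ± 132 CPM in control (SD, n = 3 each). Adipocyte markers, 1 of which (Fabp4) is in this list too, were lower in the same libraries, as given above, and their part was not tested.

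**Figure D3:**
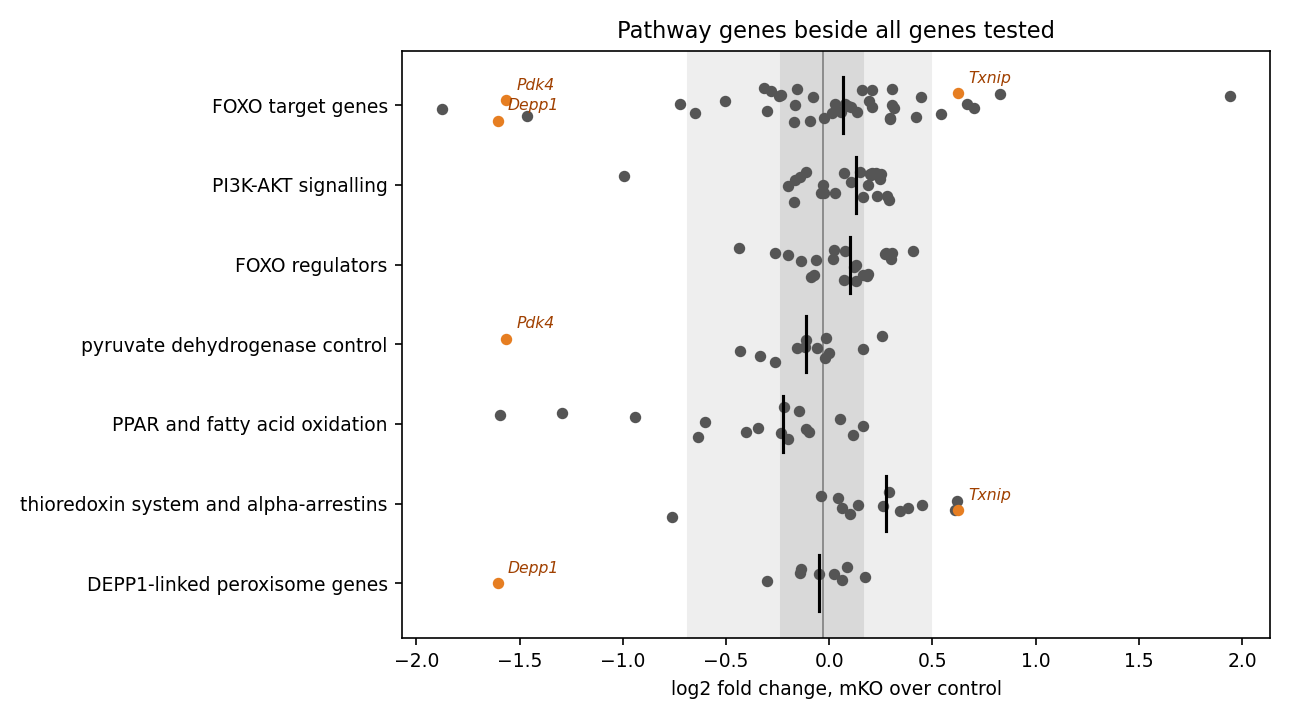
Log2 fold change of mKO over control (horizontal axis) of every measured gene in 7 pathway lists, with members in orange and other genes in grey; black ticks are list medians, and the bands hold the middle 50 and 90 percent of all 16523 genes tested. Depp1 and Pdk4 lie at -1.61 and -1.56, far from most genes of their lists, and the medians run from -0.23 for fatty acid oxidation to 0.28 for the thioredoxin and arrestin list.

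Around Txnip, 13 other genes of the thioredoxin system and its alpha-arrestin relatives were measured. Of these, 11 had a positive log2 fold change, beside 7576 of all 16523 genes, and their median was 0.26, beside -0.03. EdgeR called 0 after adjustment, and 3 higher genes and 1 lower gene had an unadjusted p under 0.05, beside 5.6% and 6.26% of all genes. DESeq2 called 2, both higher, beside 1.51%. Arrdc4, the closest relative of Txnip in its glucose response, had 54.5, 74.9 and 56.7 CPM in mKO and 44.7, 33.8 and 42.9 CPM in control. Its highest library was mKO 2 and its lowest control 2, as for Txnip, but its groups did not overlap. The log2 fold change was 0.62 (SE 0.17), and 0.19 with the endothelial score as a covariate. The adjusted p was 0.285 in edgeR and 0.0435 in DESeq2. Txnrd1, cytosolic thioredoxin reductase, had 79.6 ± 5.91 CPM in mKO and 61.0 ± 3.37 CPM in control (SD, n = 3 each). Its log2 fold change was 0.38 (SE 0.11), and 0.24 with that covariate. The adjusted p was 0.307 in edgeR and 0.0371 in DESeq2. Mlxipl, the glucose-sensing factor ChREBP, was the lower one, at 2.82 ± 0.574 CPM in mKO and 4.79 ± 1.19 CPM in control (SD, n = 3 each; log2 fold change -0.76, SE 0.24, and -0.22 with that covariate). Per exon length Txnip far exceeded its relatives, at 176 ± 25.5 CPM per kb in mKO and 115 ± 35.3 in control (SD, n = 3 each). Arrdc3 was next, at 25.6 ± 4.92 in mKO and 18.8 ± 4.27 in control, and Arrdc2 was lowest, at 2.01 ± 0.0713 in mKO and 1.95 ± 0.450 in control. Arrdc4 and Arrdc1 lay between, and their ranges overlapped in control but not in mKO.

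**Figure D4:**
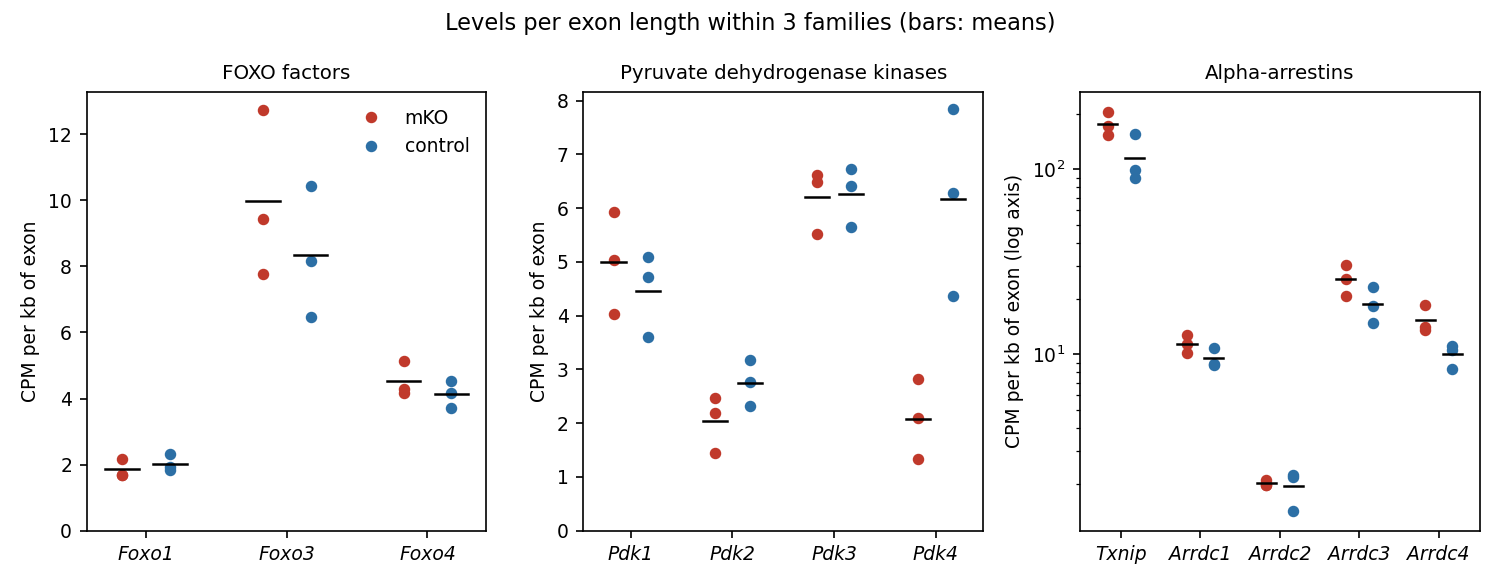
CPM per kb of annotated exon (vertical axis, logarithmic for the alpha-arrestins) of the FOXO factors, the pyruvate dehydrogenase kinases and the alpha-arrestins in the mKO and control libraries, with black bars at the means. Foxo3 leads the FOXO factors in both groups, and Pdk4 has a mean of 2.08 in mKO and 6.16 in control while the groups overlap for the 3 other kinases.

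Peroxisome genes, listed because DEPP1 has been linked to peroxisomes, lay close to the median of all genes. Of the 8 besides Depp1, edgeR called 0, as it did of all genes, and DESeq2 called 0 too. An unadjusted edgeR p under 0.05 was found for 0 of the 8, beside 11.9% of all genes. The median log2 fold change of the 8 was -0.01. Cat, catalase, had 104 ± 23.3 CPM in mKO and 128 ± 16.3 CPM in control (SD, n = 3 each), with overlapping groups and a log2 fold change of -0.30 (SE 0.19), or -0.55 with the endothelial score as a covariate. Pex14, of the peroxisomal import machinery, had -0.14 (SE 0.10), or -0.23 with that covariate. Prdx5, a peroxiredoxin and the gene of the list with the highest CPM, had 648 ± 86.8 CPM in mKO and 575 ± 87.7 CPM in control (SD, n = 3 each).

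The genes whose pattern was most like that of Depp1 were ranked by Pearson's r of log2 CPM over the 6 libraries, among 13885 other genes with a symbol and a mean of at least 1 CPM. The r values describe these libraries only: they rest on the difference between the groups, and 208 genes exceeded 0.9. The 5 closest were Shroom2, an actin-binding protein of endothelial and epithelial junctions (r 0.999), the class I histocompatibility gene H2-K1 (0.996), the zinc finger gene Zfp64 (0.989), the growth factor receptor Fgfr1 (0.987) and Ufm1, a ubiquitin-like modifier (0.987). Shroom2 had 1.31, 1.00 and 1.00 CPM in mKO and 3.26, 2.56 and 2.49 CPM in control, so it shared with Depp1 both the gap between the groups and the higher library 1 in each. H2-K1 is one of several similar genes, so its count is uncertain where reads could be split between them. Its groups did not overlap, at 361, 339 and 340 CPM in mKO and 461, 444 and 442 CPM in control, but its difference was smaller, with a log2 fold change of -0.37 (SE 0.13). Pdk4 had an r of 0.96 and, the 16 endothelial markers ran from -0.02 for Flt1 to 0.98 for Cldn5, 8 of them under 0.5. Txnip had -0.67, Foxo1 0.27, Foxo3 -0.42 and Foxo4 -0.46.

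Taken as deviations from each group's mean, which removes the difference between the groups, the 5 closest genes were Mapkap1, a subunit of the AKT-activating kinase complex mTORC2 (r 0.998), the autophagy gene Atg14 (0.995), Cd200r4 (0.993), Fance, of DNA crosslink repair (0.993), and H2-K1 (0.992). These genes shared with Depp1 the higher library 1 in each group, and 4 of the 5, H2-K1 being the exception, overlapped between the groups. Their r values are the highest among 13885 genes, each from 6 values with the group means removed, and describe these libraries only. On this scale Pdk4 had an r of 0.80, and the FOXO genes had -0.43 for Foxo1, -0.11 for Foxo3 and -0.07 for Foxo4.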

How the data were processed

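Poly(A) RNA of 6 pooled samples was sequenced, per the labels' protocols. What the authors deposited are unnormalized counts for each gene. Per the submitters' processing notes, the build was GRCm39 and the tools were HISAT2 2.1.0, featureCounts 2.0.1, FastQC 0.11.8 and Trim Galore 0.4.0, with no roles stated. Annotation release, strand setting and handling of multiply mapped reads are not stated in the sources used here, so reads of overlapping or antisense genes could be mixed. Library totals were 158579864 to 180068483 counts. The p-values set the group difference against the spread between these pools, not between single mice.

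Counts were fitted with edgeR 4.0.16 in R 4.3.3 (TMM, robust quasi-likelihood F-test, default expression filter, 16523 genes kept), with Benjamini-Hochberg adjustment over all genes and a threshold of 0.05. The SE is the one the F-test implies. DESeq2 1.42.0, limma 3.58.1 voom, other normalizations and filters, a replicate block, an endothelial score as covariate, leaving out haemoglobin and mitochondrial genes, and leaving out each library were alternatives. The fits were tested on simulated data. No 2 libraries agreed within sampling noise. Exon lengths came from GENCODE M21 on GRCm38, matched by identifier to 16492 genes. Log2 CPM for scores and r used a prior count of 2.

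The members and lists were chosen with earlier results of these data known. Genes named are the members, Sting1 and Lyz2, the 3 with the smallest p and the 1 with the highest CPM in each list, the 5 most like Depp1 by each r, and the DESeq2 calls; some genes that this rule would name are not reported here.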

Additional observations from a re-analysis of the deposited data

How the results depend on the processing

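The number of genes called by edgeR was 0 under every other normalization and filter, with limma voom, with the replicate block, with the endothelial score and without haemoglobin and mitochondrial genes. It was 466 with DESeq2, 0 to 7 on leaving out single libraries, and 6 without replicate 3 of both groups, a setting chosen after seeing the data because those libraries held most skeletal muscle transcript. The number of listed genes called, members left out, was 0 throughout except for 8 with DESeq2. The log2 fold change of Depp1 stayed between -1.66 and -1.58 over the 11 other settings and between -1.81 and -1.46 on leaving out single libraries. The endothelial score as a covariate gave 0.26 for Foxo1, -0.21 for Foxo3, -0.13 for Foxo4, -1.03 for Pdk4 and 0.22 for Txnip. That score separated the groups, so score and genotype largely cannot be told apart in this fit. Without replicate 3 of both groups Foxo1 had -0.33. The cause of these shifts was not tested. Leaving out single libraries gave -0.27 to -0.03 for Foxo1, 0.04 to 0.45 for Foxo3, 0.03 to 0.20 for Foxo4, -1.84 to -1.33 for Pdk4 and 0.47 to 0.90 for Txnip.

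The sign turned with the endothelial score for Sting1 (0.17), Inpp5d (-0.14), Plin2 (-0.21) and Prdx5 (-0.27); on leaving out single libraries for Plin2 (-0.022 to 0.22), Mapkap1 (-0.036 to 0.069), Atg14 (-0.19 to 0.0070) and Fance (-0.12 to 0.082); and for Mapkap1 with upper quartile scaling (-5.9e-04) and library totals (-0.028), and for Fance with DESeq2 size factors and DESeq2 (0.014 each) and without replicate 3 of both groups (0.0079). The likeness of Depp1 and Shroom2 was 0.998 to 0.999 on leaving out single libraries and 0.886 as Spearman's rho.

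Replicate numbers showed no pairing of the samples in the counts. Same-numbered libraries had correlated deviations of -0.14, -0.15 and -0.27, and no mKO library correlated best with its own number. With 3 libraries in each group, whose tissue content also differed, this cannot exclude a shared day of surgery or preparation. With the replicate block 0 genes were called, and Depp1 had a log2 fold change of -1.62. Low counts, such as those of Trim63, also carry counting error.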
